A study of Rattus norvegicus with 65 samples.

Results

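The receptors for neuropeptide Y (NPY) and peptide YY (PYY) were represented by 4 genes, Npy1r, Npy2r, Npy4r and Npy5r, taken by symbol from the 38513 genes counted in the rat hypothalamus. RNA had been sequenced from 65 male Wistar rats, adult at the start, 1 library per animal, in 2 experimental periods labelled batch A (37 animals) and batch B (28 animals). The groups were 14 Roux-en-Y gastric bypass (RYGB)-treated animals (11 in A, 3 in B), 11 sham-operated animals (5 and 6), 7 body-weight-matched (BWM) animals whose food was restricted to hold their weight at that of the RYGB group (all in A), 8 saline-treated animals (3 and 5), 4 animals given PYY3-36 at 0.1 mg/kg/day by osmotic minipump (all in B), 5 given liraglutide at 0.4 mg/kg/day under the skin (all in B) and 10 given both hormones at these doses (5 and 5). A further 6 animals, all in batch A, were labelled only as lean. The animals of the 7 other groups had been made obese on a high-fat diet. Their hypothalami were taken 4 weeks after the intervention and after 10 h of fasting, and all of these groups but BWM chose freely between a high-fat and a low-fat diet. PYY3-36 is the form of PYY that remains when dipeptidyl peptidase 4 has removed its first residues, and liraglutide is an agonist of the receptor for glucagon-like peptide 1.

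NPY, PYY and pancreatic polypeptide share one fold and act on a small family of receptors coupled to Gi/o proteins, which lower cyclic AMP and open inwardly rectifying potassium channels. In the hypothalamus, NPY from arcuate neurons drives feeding, mainly through the products of Npy1r and Npy5r. The product of Npy2r sits on the endings of NPY neurons, holds back their release and is the receptor that PYY3-36 prefers, while the product of Npy4r prefers pancreatic polypeptide.

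Group medians were taken within each batch, while levels over all 65 libraries pool both batches. Each library held between 20040821 and 36539714 counts on genes. The labelled tissue was checked with 8 genes of hypothalamic neurons (Sim1, Nkx2-1, Avp, Oxt, Hcrt, Pmch, Trh and Otp), whose summed level ran from 8.31 to 8190 CPM (counts-per-million). In 12 libraries it lay between 8.31 and 163 CPM, and in the other 53 it was at least 435 CPM. The 12 were 3 of 11 sham (replicates 2, 6 and 10), 2 of 8 saline (3 and 4), 2 of 6 lean (2 and 5), 2 of 5 liraglutide (3 and 4), 1 of 7 BWM (1), 1 of 4 PYY3-36 (2) and 1 of 10 PYY3-36 + liraglutide libraries (8), and 0 of 14 RYGB libraries. Markers of cortex and hippocampus had a median sum of 167 CPM in them against 28 CPM in the others, and markers of striatum 725 against 228 CPM. The fit over both batches, the permutation tests of receptors and the correlations between receptors were therefore also computed without these 12. The edgeR fits within a batch were not. In bulk tissue, fewer receptor-bearing cells and less receptor RNA per cell cannot be told apart.

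Npy1r lies on chromosome 16 of the rat genome Rnor_6.0, on the minus strand (chr16:24779480-24789131), and Npy5r lies beside it on the plus strand (chr16:24796685-24805730). The pair point away from each other, with 7553 bases between their annotated starts. Npy4r stands alone on the same chromosome as a single exon of 1257 bases (chr16:10489450-10490706, minus strand), and Npy2r is on chromosome 2 (chr2:181528949-181538145, minus strand). Because the levels of Npy1r and Npy5r moved together over animals, as given further on, the 250 bases before the start of each are shown, from RefSeq's tables of the build GRCr8, 5′ to 3′ on the strand of the gene (Npy1r at chr16:27813388-27813637, Npy5r at chr16:27821805-27822054), with matches to the motifs searched in capitals:
Npy1r: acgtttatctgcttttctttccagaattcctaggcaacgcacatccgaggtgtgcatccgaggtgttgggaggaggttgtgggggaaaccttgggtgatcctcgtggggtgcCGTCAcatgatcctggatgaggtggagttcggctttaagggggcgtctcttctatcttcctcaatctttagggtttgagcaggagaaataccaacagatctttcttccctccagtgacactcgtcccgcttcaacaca
Npy5r: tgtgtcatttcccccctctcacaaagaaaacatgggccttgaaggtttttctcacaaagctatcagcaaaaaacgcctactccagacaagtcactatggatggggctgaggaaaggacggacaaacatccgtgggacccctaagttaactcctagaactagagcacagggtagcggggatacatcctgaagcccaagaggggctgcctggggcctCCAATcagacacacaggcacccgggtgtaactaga

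Motifs were searched on both strands. These were the TATA box (TATAAA), the CCAAT box, the GC box (GGGCGG), the E box (CACGTG), the cAMP response element (TGACGTCA) and its core (TGACG), which also lies within the full element. The Npy1r stretch held only this core, read on the opposite strand from base -138 to -134 before the start, and 18.2% of the 33469 promoter stretches of this length held that motif. The Npy5r stretch held only the CCAAT box, from base -35 to -31, which was found in 34% of all stretches. No searched motif was thus shared by the neighbouring genes. These matches describe letters and not binding sites. The starts used are those of GRCr8. They do not lie 7553 bases apart as in Rnor_6.0, and they were not matched to the starts of the counted genes.

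Per length, Npy1r was the most abundant receptor RNA. Median CPM per kilobase of exon (RPKM) were 5.02 for Npy1r, 3.30 for Npy2r, 1.12 for Npy5r and 0.173 for Npy4r, which placed them at the 53.7th, 46.8th, 31.8th and 12.4th percentile of all 21871 genes tested. This order held within 52 of 65 animals. In 10 animals Npy2r was first, and in 3 animals Npy5r stood above Npy2r. The median number of counts was 435 for Npy1r, 270 for Npy2r, 124 for Npy5r and 7 for Npy4r. Npy4r had a count of 0 in 9 of 65 libraries, each of which allows a level of up to 0.0937 to 0.150 CPM (3 counts, counting error only).

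The receptor genes differed in how far animals of 1 group and batch lay apart. The coefficient of variation within groups was 30.8% for Npy1r, 34.9% for Npy5r, 45.7% for Npy2r and 79.4% for Npy4r. Counting error alone came to 4.74%, 8.74%, 6% and 41.5%. The spread within groups was thus larger than counting error for each receptor, and as a ratio to counting error it was smallest for Npy4r.

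**Figure D1:**
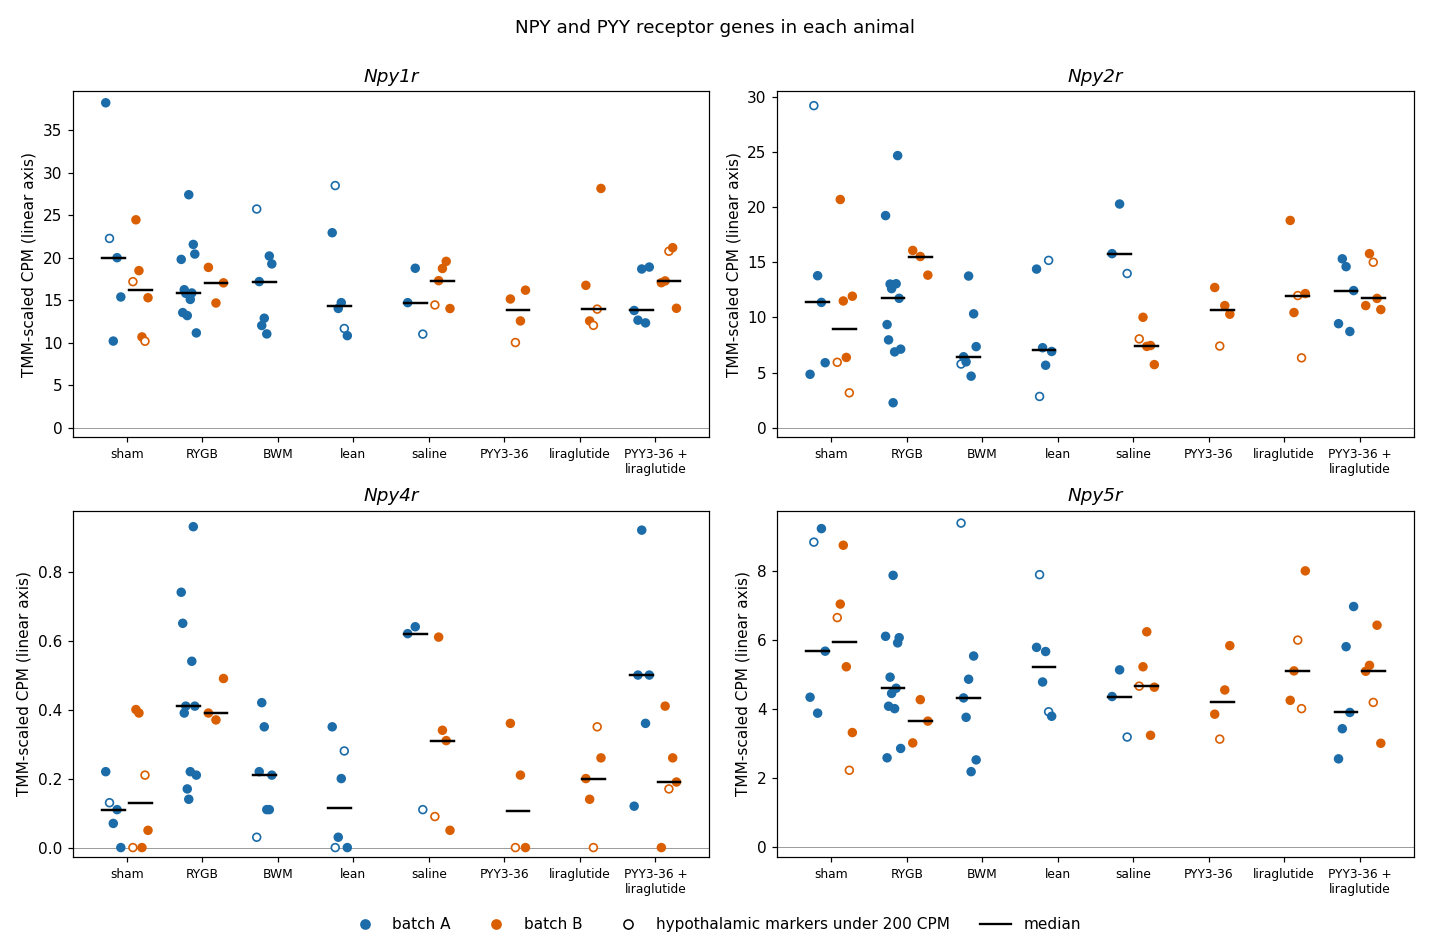
CPM, scaled by the trimmed mean of M values (TMM), of the 4 receptor genes (y axes, linear) in each of the 65 animals by group (x axis), with batch A in blue and batch B in orange. Black bars are medians and open circles are the 12 libraries whose hypothalamic markers summed to under 200 CPM. Over both batches, RYGB-treated animals had Npy4r levels from 0.14 to 0.93 CPM, and sham-treated animals from 0 to 0.40 CPM.

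No receptor gene passed the test in any of the 9 comparisons between groups (edgeR's quasi-likelihood test with group and batch as terms over all 65 libraries, Benjamini-Hochberg adjusted p under 0.05 over 21871 genes). edgeR called 0 of 4 receptors each for RYGB compared with sham, where 13% of all genes tested were called, for BWM compared with sham (0.32%), lean compared with sham (0%), RYGB compared with BWM (0.343%), PYY3-36 compared with saline (0%), liraglutide compared with saline (0%), PYY3-36 + liraglutide compared with saline (0.00457%), PYY3-36 + liraglutide compared with liraglutide (0%) and sham compared with saline (0.0137%). Of the 36 tests, 3 had an unadjusted p under 0.05. These were Npy4r for RYGB compared with sham (30% of all genes), Npy2r for RYGB compared with BWM (12.6%) and Npy4r for sham compared with saline (12.9%). The Wald test of DESeq2 called Npy4r for RYGB compared with sham, where it called 16.6% of all genes. It called no receptor in the other comparisons (Npy4r had no adjusted p there for lean compared with sham), in which it called 1% of all genes for BWM, 0.162% for lean, 0.228% for RYGB compared with BWM, 0.121% for sham compared with saline, 0.0474% for PYY3-36, 0.0419% for liraglutide, and 0.0568% and 0.0576% for both hormones compared with saline and with liraglutide. Without the 12 libraries low in hypothalamic markers, edgeR called 0 of 4 receptors in each comparison, beside 5.36% of all genes for RYGB compared with sham, 0.391% for BWM compared with sham, 0.555% for RYGB compared with BWM, 0.00455% for both hormones compared with saline, 0.0091% for sham compared with saline and 0% in the others.

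Far more genes were called between the batches than between groups, while 4 receptors are too few for a count to set them apart from all genes. For batch B compared with batch A, edgeR called 40.7% of all genes and 0 of the 4 receptors, and 0 of 4 had an unadjusted p under 0.05 (47.7% of all genes). DESeq2 called 37.1% of all genes and 0 receptors, and edgeR without the 12 libraries called 40% and 0 receptors. The log2 differences of the levels ran from -0.33 for Npy4r to -0.03 for Npy1r.

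Npy1r, the receptor through which NPY acts mostly after the synapse, had the narrowest range of fold changes over the 9 comparisons. In batch A the medians were 19.99 CPM in sham (10.18 to 38.22), 17.18 in BWM (11.02 to 25.72), 15.84 in RYGB (11.14 to 27.40), 14.70 in saline (11 to 18.75), 14.36 in lean (10.82 to 28.48) and 13.78 CPM in PYY3-36 + liraglutide animals (12.32 to 18.89). In batch B they were 17.29 CPM in saline (14.01 to 19.56), 17.26 in PYY3-36 + liraglutide (14.04 to 21.17), 17.03 in RYGB (14.66 to 18.85), 16.23 in sham (10.16 to 24.45), 13.94 in liraglutide (12.03 to 28.14) and 13.84 CPM in PYY3-36 animals (10.01 to 16.17). The ranges of all 15 pairs of groups overlapped in both batches. The log2 fold changes of its level over the 9 comparisons ran from -0.24 (PYY3-36 compared with saline, SE 0.27, adjusted p = 0.778) to 0.19 (sham compared with saline, SE 0.20, adjusted p = 0.721), and the 95% confidence intervals reached from -0.78 to 0.59. The highest level, 38.22 CPM, belonged to sham replicate 1, a library of batch A that also had the highest sum of thalamic markers of all libraries (804 CPM against a median of 73.5 CPM). Without that animal the fold change for RYGB compared with sham was 0.10 in place of -0.11 (SE 0.18). The part of thalamic tissue in this value was not tested.

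Npy5r, which shares with Npy1r the role of driving feeding, passed the test in no comparison either. Its medians ran from 3.90 CPM in PYY3-36 + liraglutide animals to 5.67 CPM in sham animals of batch A, and from 3.65 CPM in RYGB to 5.93 CPM in sham animals of batch B. Sham animals thus had the highest median in both batches, but the ranges of all 15 pairs of groups overlapped in each. RYGB-treated animals of batch B had 3.02, 4.27 and 3.65 CPM, and sham-treated animals of that batch 2.23 to 8.73 CPM. The log2 fold change for RYGB compared with sham was -0.40 (SE 0.21, 95% confidence interval -0.81 to 0.02, adjusted p = 0.186), and it was -0.39 within batch A and -0.59 within batch B. BWM compared with sham gave -0.40 as well (SE 0.26, adjusted p = 0.544), and RYGB compared with BWM gave 0.00 (SE 0.23, 95% confidence interval -0.46 to 0.47). Both values moved with BWM replicate 1, a library low in hypothalamic markers with 9.37 CPM of Npy5r. Without this animal BWM compared with sham gave -0.67, and without the 12 libraries it gave -0.65 (SE 0.26, unadjusted p = 0.0162, adjusted p = 0.246) and RYGB compared with BWM 0.26 (SE 0.22, adjusted p = 0.555). With saline in place of sham, the value for RYGB was smaller, as sham animals lay 0.35 above saline animals (SE 0.23, adjusted p = 0.530) on the log2 scale.

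Npy2r, the receptor preferred by PYY3-36, had group medians from 6.43 to 15.78 CPM in batch A. There, saline-treated animals had 15.78, 20.28 and 13.98 CPM and BWM animals 4.67 to 13.75 CPM with a median of 6.43 CPM, so these groups did not overlap. In batch A, 1.46% of all genes tested separated these groups without overlap. The levels of the 4 other groups lay across them, with 2.26 to 24.67 CPM (median 11.73) in RYGB, 8.72 to 15.31 CPM (12.43) in PYY3-36 + liraglutide, 4.84 to 29.20 CPM (11.36) in sham and 2.83 to 15.17 CPM (7.08) in lean animals. The highest value of the study, 29.20 CPM, came from sham replicate 2, one of the 12 libraries, in which cortical and hippocampal markers summed to 1900 CPM. RYGB-treated animals had higher values than BWM animals by 0.73 on the log2 scale (SE 0.33, unadjusted p = 0.0294, adjusted p = 0.348 by edgeR over both batches). Within batch A, which held all BWM animals, the means of log2(CPM + 0.1) differed by 0.45 (exact permutation p = 0.254, or 0.813 after adjustment over 48 tests). BWM compared with sham gave -0.65 (SE 0.35, adjusted p = 0.444), which became -0.36 without sham replicate 2 and -0.41 without the 12 libraries (SE 0.35, adjusted p = 0.657). RYGB compared with sham gave 0.08 (SE 0.28, 95% confidence interval -0.47 to 0.63, adjusted p = 0.875). The batches differed in sign, with -0.16 (SE 0.35, adjusted p = 0.821) in batch A and 0.61 (SE 0.46, adjusted p = 0.452) in batch B, and the value over both became 0.35 without sham replicate 2.

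PYY3-36 was given alone or with liraglutide. In batch B, the 5 saline-treated animals had Npy2r levels of 8.05, 10.01, 7.37, 7.45 and 5.72 CPM. The 5 animals given PYY3-36 + liraglutide had 11.07, 15.78, 15.00, 11.72 and 10.71 CPM. All animals given both hormones lay above all saline animals of the batch, with means of 12.86 ± 2.36 CPM (SD, n = 5) and 7.72 ± 1.55 CPM (SD, n = 5). Such a separation in either direction was seen for 1.09% of all genes tested, and for 0.485% with the treated group higher. The exact two-sided permutation test of the means of log2(CPM + 0.1) gave p = 0.00794, the smallest that 5 against 5 animals allow, and p = 0.190 after adjustment over the 48 within-batch tests of receptors, while edgeR within batch B gave 0.74 (SE 0.42, adjusted p = 0.817). Without the 12 libraries the permutation test gave p = 0.0286 (4 against 4 animals), or 0.571 after adjustment over 40 tests. In batch A the difference had the other sign. The mean of saline animals was 16.68 CPM in batch A and 7.72 CPM in batch B, and that of animals given both hormones 12.10 and 12.86 CPM. The saline difference by itself was not tested. In batch A, PYY3-36 + liraglutide animals had 9.43, 15.31, 14.60, 8.72 and 12.43 CPM and the 3 saline animals 13.98 to 20.28 CPM, a log2 fold change of -0.46 (SE 0.47). The difference between the batches was 1.20 (SE 0.63, unadjusted p = 0.0610, adjusted p = 1), and over both batches the log2 fold change was 0.18 (SE 0.32, 95% confidence interval -0.46 to 0.83, adjusted p = 1).

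Each hormone alone was tested in batch B only. Npy2r was at 12.71, 7.40, 11.07 and 10.29 CPM in PYY3-36-treated animals and at 18.79, 10.44, 11.98, 6.33 and 12.16 CPM in liraglutide-treated animals. Both groups overlapped with saline. The log2 fold changes within the batch were 0.42 (SE 0.44, adjusted p = 0.714) and 0.63 (SE 0.42, adjusted p = 1), and the test of whether PYY3-36 did more or less on top of liraglutide than alone gave -0.31 (SE 0.61, adjusted p = 0.857). PYY3-36 + liraglutide compared with liraglutide gave -0.03 over all libraries (SE 0.38, 95% confidence interval -0.80 to 0.73, adjusted p = 1). Oligodendrocyte markers, a list of 3 genes, summed to 15100 to 26700 CPM in saline and 10900 to 24500 CPM in PYY3-36 + liraglutide animals of batch B, and over the 28 animals of that batch Npy2r was lower where their mean log2 level was higher (r = -0.74, a description). In batch A this r was -0.25, and for Npy1r it was -0.72 in batch B. The part of white matter in the Npy2r values was not tested. RYGB-treated animals of batch B, at 16.07, 15.52 and 13.83 CPM, lay above all saline and all PYY3-36 animals of the batch, which held without overlap for 14.1% and 9.88% of all genes.

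**Figure D2:**
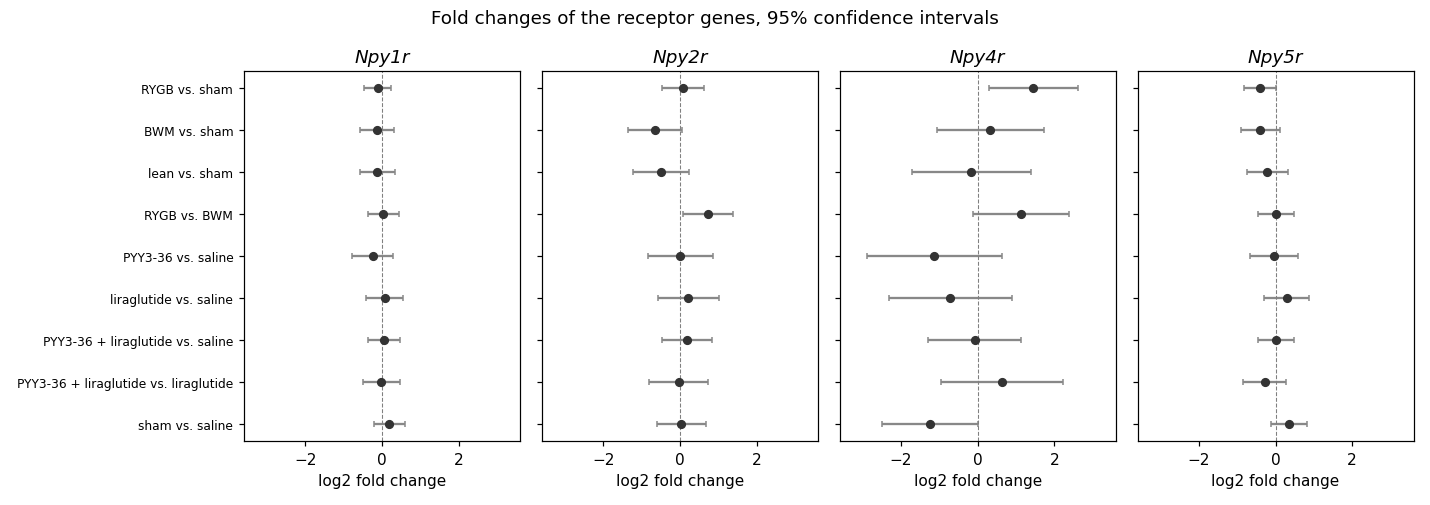
Log2 fold changes of the level (x axes) of each receptor gene in the 9 comparisons (rows), from edgeR over all 65 libraries. Points are estimates and bars 95% confidence intervals. The intervals are narrowest for Npy1r and widest for Npy4r, whose estimate for RYGB compared with sham is 1.45.

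Npy4r, the receptor for pancreatic polypeptide, had the largest fold change of the family. In batch A the 5 sham-treated animals had levels of 0.22, 0.13, 0.07, 0.11 and 0 CPM. The 11 RYGB-treated animals had 0.14 to 0.93 CPM with a median of 0.41 CPM. In batch B the 3 RYGB-treated animals had 0.39, 0.37 and 0.49 CPM, and the 6 sham-treated animals 0 to 0.40 CPM with a median of 0.13 CPM. RYGB-treated animals were thus mostly higher in both periods, with overlapping ranges in each. In counts these were 4 to 29 in RYGB and 0 to 7 in sham animals of batch A, and 10 to 13 and 0 to 9 in batch B.

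The log2 fold change of Npy4r for RYGB compared with sham was 1.45 (SE 0.58, 95% confidence interval 0.29 to 2.62), a 2.74-fold difference, with an unadjusted p of 0.0150 and an adjusted p of 0.0804 by edgeR. Within batch A it was 1.99 (SE 0.79, adjusted p = 0.0979), within batch B 1.24 (SE 0.92, adjusted p = 0.450), and the difference between the batches was -0.75 (SE 1.20, adjusted p = 0.881). The exact permutation test within batch A gave p = 0.00275, or 0.132 after adjustment over the 48 tests. Without the 12 libraries this test gave p = 0.00733 (11 against 4 animals), or 0.293 after adjustment over 40 tests. The gene passed the threshold with DESeq2 (1.5, adjusted p = 0.0365), without the batch term (1.58, adjusted p = 0.0310), with only RYGB and sham libraries in the fit (1.68, adjusted p = 0.0317) and when either of the highest sham libraries of batch B was left out. These were replicate 7 at 0.40 CPM (1.73 and an adjusted p of 0.0393 without it) and replicate 8 at 0.39 CPM (1.7 and 0.0484). Without the 12 libraries low in hypothalamic markers it was 1.38 with an adjusted p of 0.138.

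The value depended on the control group. Saline-treated animals had Npy4r levels of 0.62, 0.64 and 0.11 CPM in batch A and of 0.09, 0.61, 0.34, 0.31 and 0.05 CPM in batch B, which overlapped with RYGB in both batches. RYGB compared with saline gave 0.20 over both batches. Sham compared with saline gave -1.25 (SE 0.62, unadjusted p = 0.0496, adjusted p = 0.388). BWM animals had 0.03 to 0.42 CPM (median 0.21), lean animals 0 to 0.35 CPM (0.12) and PYY3-36 + liraglutide animals of batch A 0.12 to 0.92 CPM (0.50). RYGB compared with BWM gave 1.12 (SE 0.63, adjusted p = 0.441) and BWM compared with sham 0.33 (SE 0.70, adjusted p = 0.886). PYY3-36 compared with saline gave -1.13 with an interval from -2.90 to 0.64, which includes both signs. In batch B the 3 RYGB animals lay above all liraglutide animals (0 to 0.35 CPM) and all PYY3-36 animals (0 to 0.36 CPM), as 4.29% and 9.88% of all genes did in either direction.

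Libraries low in hypothalamic markers had a lower median of Npy4r, 0.10 CPM (0 to 0.35) against 0.26 CPM (0 to 0.93) in the others. This difference is mixed with group, since no RYGB library was among the 12. Within sham, the 3 low libraries had 0.13, 0 and 0.21 CPM, inside the 0 to 0.40 CPM of that group. For all 12 against the others, the median of Npy2r was 7.73 against 11.07 CPM, whereas Npy1r (14.19 against 16.17 CPM) and Npy5r (4.42 against 4.63 CPM) were closer. Over animals, with group means kept in, Npy4r went with the mean log2 level of the hypothalamic markers at r = 0.38 in batch A and 0.42 in batch B, and with 3 markers of the ventromedial nucleus at 0.46 and 0.58. Npy2r went with the latter at 0.46 and 0.66. Hypothalamic markers summed to 702 to 6930 CPM in the 11 RYGB animals of batch A and to 20.8 to 3520 CPM in the 5 sham animals, with medians of 1880 and 2920 CPM. The 3 ventromedial markers had a higher median sum in RYGB than in sham animals in both batches, with 58.6 CPM (24.7 to 120) against 44.1 CPM (28.9 to 74.5) in batch A and 63.1 CPM (45.8 to 85.8) against 27.1 CPM (16.8 to 68.9) in batch B. Of the 3, Nptx2 had the highest median over all libraries, 28.4 CPM, beside 9.23 CPM for Fezf1 and 4.09 CPM for Nr5a1. The highest sum, 120 CPM, came from saline replicate 4 of batch B, a library with 11.9 CPM of hypothalamic markers. The sum is thus not a measure of ventromedial tissue alone. The part of these markers in the Npy4r difference was not tested. These correlations are descriptions over animals that also differed in the tissue sampled, and dissection entered the Npy4r test only through leaving out the 12 libraries.

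**Figure D3:**
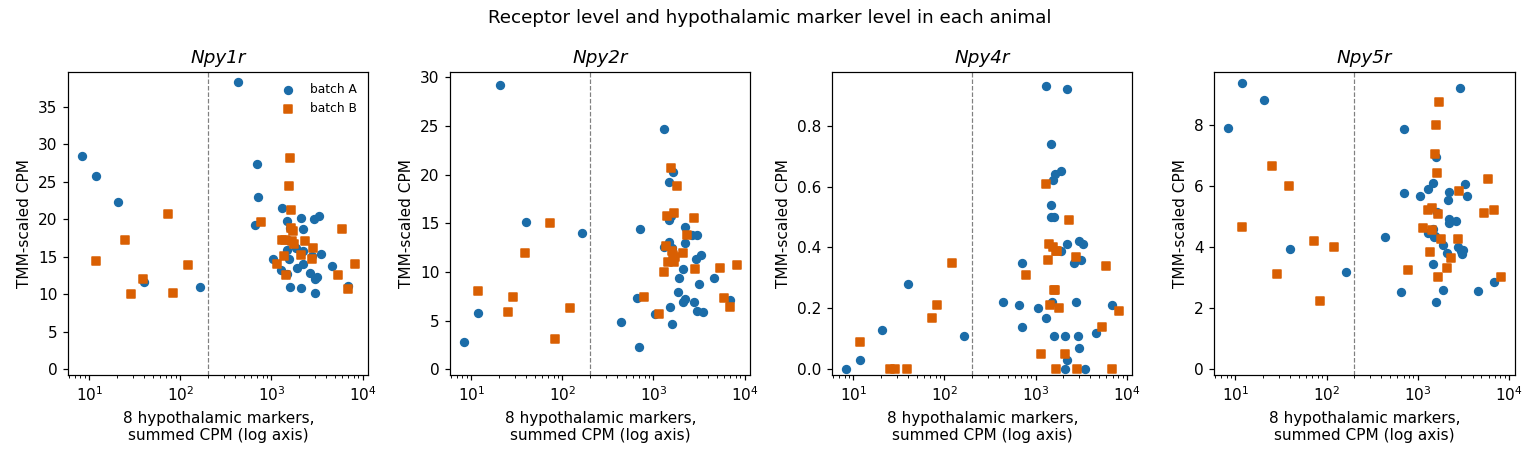
Level of each receptor gene (y axes, CPM) against the summed CPM of 8 hypothalamic marker genes (x axes, log scale) in 65 animals, with batch A as blue circles and batch B as orange squares. The dashed line marks 200 CPM. The 12 libraries to its left, with no RYGB library among them, had Npy4r levels of at most 0.35 CPM.

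Receptor genes were also compared with each other over animals, after the mean of each group was taken off within its batch. Of the 12 relations (6 pairs in 2 batches), 4 passed Pearson's test at an adjusted p under 0.05 (permutation within groups). Npy1r and Npy5r, the neighbours on chromosome 16, rose and fell together. In batch A, r was 0.64 and Spearman's rho 0.67 over 37 animals (permutation p = 5e-05 for both, adjusted p = 0.0006), and r was 0.76 without the 2 animals farthest from the median of Npy1r. In batch B, r was 0.56 (permutation p = 0.014, adjusted p = 0.043) and rho 0.50 (permutation p = 0.021, adjusted p = 0.064) over 28 animals, and r was 0.47 without the 2 farthest animals. Without the 12 libraries, batch A gave an r of 0.54 (adjusted permutation p = 0.018, 32 animals). Batch B gave an r of 0.47 (adjusted permutation p = 0.20, 21 animals). With all libraries and group means kept in, both genes were lower where oligodendrocyte markers were higher. Npy1r had an r of -0.32 (batch A) or -0.72 (batch B) with them, while Npy5r had -0.31 or -0.37. Their r with 5 neuronal markers was 0.33 (Npy1r) or 0.53 (Npy5r) in batch A. For batch B it was 0.12 or 0.16. The part of the tissue sampled in the relations between receptors was not tested.

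Npy2r and Npy4r formed the other pair. In batch A their r came to 0.55 (permutation p = 0.00042, adjusted p = 0.0025) with rho at 0.54 (permutation p = 0.0012, adjusted p = 0.007), and 0.54 without the 2 animals farthest from the median of Npy2r. In batch B, r was 0.33 (adjusted permutation p = 0.28) and rho 0.44 (adjusted permutation p = 0.11). Without the 12 libraries, r came to 0.51 for batch A and 0.66 for batch B (adjusted permutation p = 0.018 for both), while rho was 0.44 and 0.60 (adjusted permutation p = 0.078 and 0.069). Npy1r and Npy2r passed this test in batch B (r = 0.61, adjusted permutation p = 0.043, against -0.17 in batch A, adjusted permutation p = 0.54), but not by rho (0.53, adjusted permutation p = 0.064) and not without the 12 libraries (r = 0.56, adjusted permutation p = 0.18), and the difference between the batches was not tested.

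**Figure D4:**
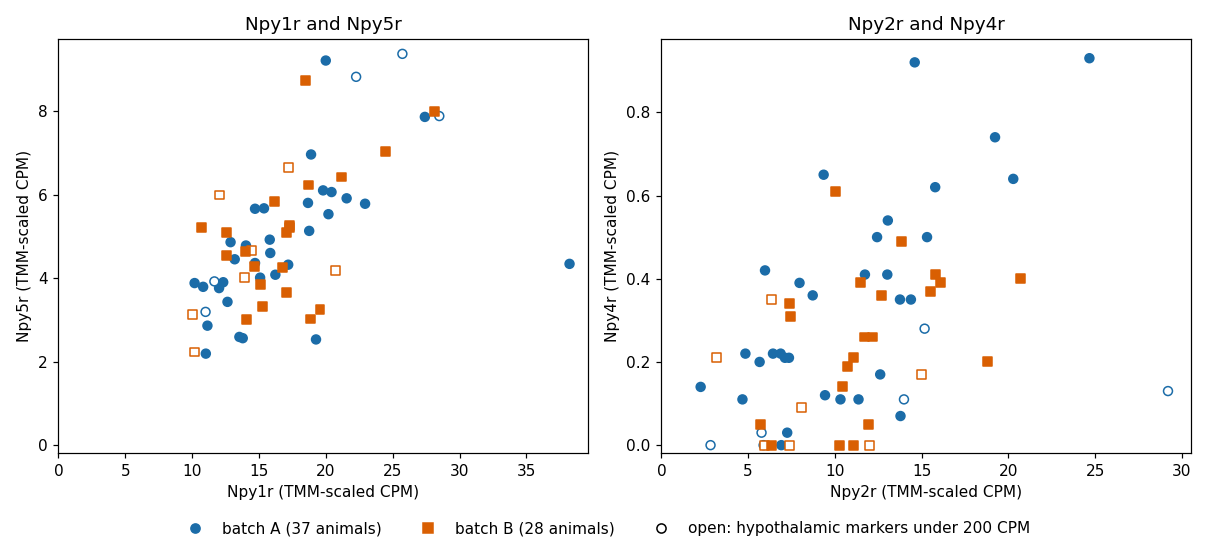
Npy5r against Npy1r (left) and Npy4r against Npy2r (right), both axes in CPM, in 37 animals of batch A (blue circles) and 28 of batch B (orange squares), with open symbols for the 12 libraries low in hypothalamic markers. The point at 38.22 CPM of Npy1r is sham replicate 1 and the point at 29.20 CPM of Npy2r is sham replicate 2.

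The genes most like each receptor were sought over all tested genes but those whose symbol starts with LOC or RGD. They were ranked by the mean of r over the 37 animals of batch A and the 28 of batch B. Group means were kept in, and no library was left out. For Npy1r the first 3 were Npy5r (mean r 0.57), Ldb2 (0.57), which encodes a cofactor of LIM-domain transcription factors, and Nol4 (0.56). For Npy5r they were Ptbp2 (0.61), a splicing regulator of neurons, Elovl2 (0.59), an enzyme that lengthens polyunsaturated fatty acids, and Npy1r (0.57). Each of the neighbours was thus among the first 3 of the genes ranked for the other. For Npy2r they were Unc5d (0.77), a netrin receptor, Fbxo10 (0.76) and Tnfrsf21 (0.74), a death receptor, and for Npy4r Ate1 (0.71), an arginyltransferase, Pgr15l (0.68) and Amotl1 (0.66).

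Of the ligands, Npy had a median of 14.35 CPM (4.15 to 76.21), Pyy of 0.26 CPM (0 to 1.47), and Ppy, which encodes pancreatic polypeptide, had a count of 0 in all 65 libraries, each of which allows up to 0.0821 to 0.150 CPM. RNA of Npy4r was thus detected in tissue where RNA of Ppy was not. The peptides themselves were not measured. Npy did not pass the test in any comparison, with log2 fold changes from -0.85 (PYY3-36 compared with saline, SE 0.55, adjusted p = 0.676) to 0.23 (sham compared with saline, SE 0.40, adjusted p = 0.854). For RYGB compared with sham it was -0.55 (SE 0.36, adjusted p = 0.312) and for BWM compared with sham 0.14 (SE 0.44, adjusted p = 0.926). The sham libraries low in hypothalamic markers (replicates 2, 6 and 10) had 34.42, 76.21 and 42.90 CPM of Npy. The other sham libraries had 4.15 to 25.78 CPM, and no RYGB library was low in these markers. The part of the tissue sampled in the Npy values was not tested. Pyy gave -0.53 (SE 0.55, adjusted p = 0.540) for RYGB compared with sham. Agrp, made by the arcuate neurons that make Npy, had a median of 0.95 CPM and a range from 0.10 to 19.18 CPM. In the sham replicates 2, 6 and 10 it was at 0.83, 0.88 and 0.31 CPM, and in the other sham libraries at 0.24 to 9.29 CPM.

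Dpp4 encodes the peptidase that turns PYY into PYY3-36. In batch A, sham animals had levels of 0.09, 0.23, 0.56, 0.36 and 0.04 CPM, RYGB animals 0.20 to 14.68 CPM (median 2.16) and BWM animals 0.18 to 12.76 CPM (2.05). Lean animals had 0.53 to 7.88 CPM (2.76) and PYY3-36 + liraglutide animals of batch A 0.74 to 5.95 CPM (1.8). The median of saline animals was 0.38 CPM. Sham animals had the lowest median of batch A, and levels like those of RYGB and BWM animals were not confined to these groups. In batch B, RYGB animals had 0.43, 0.71 and 0.45 CPM and sham animals 0.15 to 3.27 CPM (0.97). The gene was called higher in RYGB than in sham in batch A (log2 fold change 3.84, SE 0.87, adjusted p = 0.0076, where 8.57% of 22207 genes were called) and not in batch B (-1.36, SE 0.99, adjusted p = 0.444), and the difference between batches was -5.20 (SE 1.35, adjusted p = 0.130). BWM compared with sham gave 3.72 in batch A (SE 0.89, adjusted p = 0.0109, where 5.31% were called). Over both batches the fold change for RYGB compared with sham was 1.61 (SE 0.75, adjusted p = 0.135). Meningeal markers, all 5 of which were detected, summed to 22.0 to 53.2 CPM in sham, 32.5 to 1120 CPM in RYGB and 30.9 to 1100 CPM in BWM animals of batch A, and to 52.5 to 95.7 CPM in RYGB and 35.3 to 282 CPM in sham animals of batch B. The part of meningeal tissue in the Dpp4 difference was not tested.

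The wider list of the NPY and PYY system held 35 genes for ligands, related RFamide receptors, peptide processing, Gi/o proteins, potassium channels, arrestins, adenylyl cyclases and the neurons that make or receive NPY, of which 33 were tested (not Ppy and Npffr2). For RYGB compared with sham 1 of 33 was called, where 13% of all genes were. This was Gnai3, an alpha subunit of the inhibitory G proteins, at a log2 fold change of 0.25 (SE 0.09, adjusted p = 0.0439). The median of the list was 0.19 beside -0.02 for all genes tested. The call of Gnai3 was lost without any 1 of 13 of the 25 animals (RYGB replicates 1, 2, 3, 7, 9, 13 and 14 and sham replicates 1, 2, 3, 4, 5 and 10) and without the 12 libraries (0.27, adjusted p = 0.0569). DESeq2 called 5 of the list, Gnai3, Adcy2, Dpp4, Fap and Pam, where it called 16.6% of all genes. Within batch A edgeR called 3 of 33 for RYGB compared with sham (Dpp4, Fap and Gnai3, 8.57% of all genes) and 2 of 33 for BWM compared with sham (Dpp4 and Gnai3, 5.31%). Within batch B it called 1 of 33 for RYGB compared with sham, Kcnj9 (1.23, SE 0.36, adjusted p = 0.0486, 2.72% of all genes), which gave -0.17 in batch A (SE 0.28, adjusted p = 0.746).

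In the other 8 comparisons edgeR over both batches called 0 of 33 genes of the list. At an unadjusted p under 0.05 there were 6 for RYGB compared with BWM (12.6% of all genes), 4 for BWM compared with sham (12.3%), 3 for lean compared with sham (12.2%), 2 for sham compared with saline (12.9%), 2 for PYY3-36 (7.54%), 1 for liraglutide (2.08%), 3 for both hormones compared with saline (2.53%) and 0 for both compared with liraglutide (2.47%). DESeq2 called 0 apart from Qrfpr for PYY3-36 compared with saline (-2.19, adjusted p = 0.0177). Medians of the list ran from -0.07 (sham compared with saline) to 0.21 (RYGB compared with BWM). Between batches edgeR called 8 of 33 genes of the list, beside 40.7% of all genes. In batch B 3 were higher (Gnai3, Adcy2 and Cpe, by 0.26 to 0.40) and 5 lower than in batch A, namely Kcnj6 and Kcnj9 (-0.73 and -0.51), which encode potassium channels opened by Gi/o proteins, Arrb1 and Arrb2 (-0.22 each), which encode arrestins, and Pomc (-2.11, SE 0.77, adjusted p = 0.0237).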

How the data were processed

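The authors made reverse-stranded libraries from poly-A RNA, trimmed reads with cutadapt 1.16, mapped them with STAR 2.7.2b to Rnor_6.0 and counted exons with featureCounts 1.6.4, splitting reads with several places or genes (versions per the submitters' processing notes). The deposited values are estimated counts per gene, neither normalized nor logged, and were rounded to whole counts here, which changed no receptor's total by more than 0.01%. Groups and batches came from the labels, and p-values measure the spread between these animals.

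Genes were kept by filterByExpr (minimum count 10, minimum total 15), scaled by TMM and fitted with the robust quasi-likelihood model of edgeR 4.0.16 in R 4.3.3, with group and batch as terms over all 65 libraries. Within-batch values and differences between batches came from a second fit with 1 mean per group and batch (22207 genes). The fit with group and batch as terms was tested on simulated data, and the second fit was not. DESeq2 1.42.0 gave an alternative. The test of single receptors within a batch was an exact two-sided permutation test on log2(CPM + 0.1), and correlations were permuted within groups 100000 times (scipy 1.17.1). CPM and RPKM used TMM-scaled totals, and RPKM the exon lengths of the table. Intervals are 95%. Other settings were RLE size factors, no filter, no batch term, both groups alone, a replicate block, saline as control, the study's rule with an absolute log2 fold change over 1, a pseudocount of 1, each animal left out, and, chosen after seeing the data, no library under 200 CPM of hypothalamic markers. Named were the 4 receptors, Npy, Pyy, Ppy and Dpp4, other list genes called, and the 3 genes most like each receptor (LOC and RGD symbols passed over). Receptors and lists were chosen with earlier results of these data known.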

Additional observations from a re-analysis of the deposited data

How the results depend on the processing

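Apart from RYGB compared with sham, the number of receptor genes called stayed at 0 under each setting run in all 9 comparisons and in batch B compared with batch A, including the fits without the 12 libraries low in hypothalamic markers, which were chosen after seeing the data. DESeq2 gave no adjusted p for Npy4r and Pyy in lean compared with sham. For RYGB compared with sham it was 1 (Npy4r) with DESeq2, without the batch term and with only both groups, and 0 to 1 when 1 animal was left out. For the wider list the count for RYGB compared with sham was 1, and it became 5 with DESeq2, 4 without the batch term, 2 with only both groups, and 0 with no filter, with the study's rule, and with saline as control with or without the 12 libraries. It was 0 to 3 when 1 animal was left out. It was 0 to 1 for BWM compared with sham (Gnai3 without BWM replicate 1) and for lean compared with sham (Arrb2 without lean replicate 6). The list count became 1 for BWM compared with sham without the batch term (Dpp4) and 1 for PYY3-36 compared with saline with DESeq2 (Qrfpr). The cause was not tested.

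Of 328 receptor fold changes under other settings, 316 kept their side of the threshold and did not change sign by more than 1 SE, 3 passed it (Npy4r, above) and 9 changed sign without being called. Npy1r for RYGB compared with sham became 0.08 in batch B and 0.09 against saline. Npy4r for RYGB became -0.09 against saline without the 12 libraries, and for BWM -0.92 against saline and -1.03 also without the 12. Npy2r for PYY3-36 + liraglutide compared with saline became -0.46 in batch A. For sham compared with saline Npy1r became -0.07 in batch B and Npy2r -0.36 in batch A. Npy2r for batch B compared with batch A became 0.02 without the 12. When 1 animal was left out, 627 of 632 values stayed, and Npy1r ran from -0.18 to 0.10 for RYGB compared with sham (0.10 without sham replicate 1), from -0.19 (without liraglutide replicate 5) to 0.18 for liraglutide compared with saline, and from -0.13 to 0.24 (without the same animal) for both hormones compared with liraglutide. A further 27 and 73 values changed sign by less than 1 SE.

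Replicate numbers were not treated as pairs. In each comparison with 3 or more shared numbers some pairs correlated at 0.1 or less, while replicate 2 of lean and sham reached 0.588. For liraglutide compared with saline the shared numbers 4 and 5 gave 0.344 and 0.38. These values do not settle whether animals were paired. With the replicate block, receptor genes called stayed at 0 in each comparison and the list count for RYGB compared with sham was 1 (Dpp4 in place of Gnai3). The number of receptor relations that passed, 4, was 4 with a pseudocount of 1 and 3 without the 12 libraries. The interval of Npy4r for RYGB compared with sham spanned 0.29 to 2.62, and counting error was 41.5% beside a coefficient of variation of 79.4% within groups.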
